A study of Mus musculus with 80 samples.

Results

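The Fc receptors and costimulatory molecules described here were 9 genes, the IgG receptors *Fcgr1*, *Fcgr2b* and *Fcgr3*, the shared signalling chain *Fcer1g*, and *Cd83*, *Cd86*, *Cd40*, *Cd274* and *Icam1*. They were listed by name, with earlier results of these data known. All 9 were in both expression tables, which held 15919 genes in the sort comparison and 16000 genes in the cell preparation comparison. RNA-seq libraries, 80 in all, were made from the brains of Cx3cr1-NuTRAP mice, labelled Cx3cr1(Jung)-cre/Ert2+;NuTRAP+ in every group, the controls included. Tamoxifen at 100 mg/kg, given daily from about 3 months of age, activated the NuTRAP allele in cells that express Cx3cr1, so that their ribosomes carried eGFP. Translating ribosome affinity purification (TRAP) pulls those ribosomes out of a homogenate with an antibody to GFP, and each TRAP library was paired with an Input library of total RNA from the same homogenate. *Cx3cr1* also marks macrophages at the borders of the brain, so the TRAP fraction is not limited to microglia by its design, while circulating *Cx3cr1*+ cells turn over between tamoxifen and harvest.

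In the sort comparison (48 libraries), Tissue samples were homogenized directly (mice 946 to 949), Cell samples were suspensions from enzymatic and mechanical dissociation of brains of the same 4 mice, and 4 further groups were suspensions sorted with CD11b beads on the autoMACS (n = 4), in the cartridge of the Tyto (n = 5), on the FACSAria (n = 4), or on the autoMACS followed by the Tyto (n = 3). In the cell preparation comparison (32 libraries, n = 4 per group and fraction), the Tissue group came from mice 946 to 949 again, Cell (-) Inhibitor and Cell (+) Inhibitor were suspensions of 4 other mice made without and with actinomycin D, triptolide and anisomycin, which block transcription and translation, and Dounce was a mechanical dissociation at 4 °C of 4 more mice. The Tissue samples of both tables were therefore the same animals. A library of the sort comparison held between 7129464 and 20168116 expected counts in total, with a median of 15211942. Libraries of the cell preparation comparison held between 2471448 and 14650287, at a median of 10179908, with Dounce-TRAP the shallowest group (median 3403594). The 17 microglial reference genes, *Tmem119*, *P2ry12* and *Csf1r* among them, summed to 11034 to 13144 CPM (counts scaled to a common library total) in Tissue-TRAP and to 54865 to 59091 CPM in Cell-TRAP. All 17 were higher in Cell-TRAP, by a median of 2.32 on the log2 scale, and 8 of 8 neuronal markers were lower.

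Fc gamma receptors bind the constant part of IgG and let phagocytes take up or attack coated targets. *Fcgr1* is the high-affinity receptor and *Fcgr3* a low-affinity activating receptor, both of which signal through the ITAM motif of *Fcer1g* and the kinase *Syk*, whereas *Fcgr2b* carries an inhibitory motif. *Cd86* binds CD28 on T cells, *Cd40* receives CD40 ligand and signals through TRAF adaptors to NF-kB, *Cd274* (PD-L1) is the ligand of the inhibitory receptor PD-1, *Cd83* is a surface marker of activated antigen-presenting cells, and *Icam1* is the adhesion ligand of the leukocyte integrins LFA-1 and Mac-1. Resting microglia carry these proteins at low to moderate levels, and several of the genes are textbook targets of NF-kB.

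In the mm10 build, 3 of the 9 genes lie near each other on the minus strand of chromosome 1, *Fcgr2b* at 170960559 to 170976071, *Fcgr3* at 171051169 to 171059403 and *Fcer1g* at 171229572 to 171234349. *Fcgr1* lies on chromosome 3 (96282909 to 96293969, minus strand), *Cd83* on chromosome 13 (43785107 to 43803132, plus strand), *Cd86* on chromosome 16 (36603869 to 36666077, minus strand), *Cd40* on chromosome 2 (165055636 to 165071654, plus strand), *Cd274* on chromosome 19 (29367438 to 29388094, plus strand) and *Icam1* on chromosome 9 (21015960 to 21028796, plus strand). *Fcgr2b* and *Fcgr3* share an identical coding run of 129 bases that crosses 2 exons of each gene, in *Fcgr2b* between 1:170966674 and 170968081 and in *Fcgr3* between 1:171054167 and 171057792 (GRCm38). It is shown because a read that lies wholly inside it cannot be assigned to either gene, so the counts of both genes carry that uncertainty.
Fcgr2b and Fcgr3, shared exonic run: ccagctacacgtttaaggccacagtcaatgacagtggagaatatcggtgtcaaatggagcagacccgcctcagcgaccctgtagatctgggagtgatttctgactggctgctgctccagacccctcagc
Of all 50-base words in the exons, 166 were common to the pair, which is 2.92% of those of *Fcgr2b* and 9.58% of those of *Fcgr3*. Annotated antisense genes overlap *Fcgr2b*, *Cd274* and *Icam1*, and a microRNA gene lies within *Fcgr3* on the same strand.

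The promoter windows in RefSeq (GRCm38.p6, 250 bases before to 50 after the start) held 6 of the 9 genes, *Cd83*, *Cd86* and *Cd40* having no entry. They were searched on both strands for 4 motifs, an NF-kB consensus, an AP-1 motif TGANTCA, a PU.1 motif GAGGAAGT and a cyclic AMP response element TGACGTCA. Only the NF-kB consensus was found, in 1 of the 6 genes, *Fcgr3*, against 8.46% of 32851 windows. The other 3 motifs, which are in 7.81%, 3.20% and 1.79% of windows, were not in these 6. A shorter NF-kB form, GGAAATTCC, which was chosen after the *Icam1* sequence had been read, is in the *Icam1* window and in 0.317% of all windows. Both matches are shown within 30 bases, capitals marking the motif, at 1:171059536-171059565 (minus strand, 152 bases before the start) and at 9:21015777-21015806 (plus strand, 153 bases before the start).
Fcgr3: acagtagcttGGGGTTTTCCccaagggtac
Icam1: acttcagtttGGAAATTCCtagatcgcagg
The full windows of *Icam1* and *Cd274* are given because these genes, one an adhesion ligand and the other a checkpoint ligand, differed in opposite directions between the Dounce and enzymatic libraries described further on. They lie at 9:21015690-21015989 and 19:29367188-29367487, both on the plus strand, with the 50 transcribed bases in capitals, and their GC content is 64.7% and 52.7%.
Icam1 promoter: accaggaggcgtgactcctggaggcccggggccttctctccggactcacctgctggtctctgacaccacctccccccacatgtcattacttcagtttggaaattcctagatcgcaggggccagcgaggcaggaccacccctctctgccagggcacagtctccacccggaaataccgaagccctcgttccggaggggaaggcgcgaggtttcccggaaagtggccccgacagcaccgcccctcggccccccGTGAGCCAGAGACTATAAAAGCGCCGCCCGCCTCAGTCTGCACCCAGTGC
Cd274 promoter: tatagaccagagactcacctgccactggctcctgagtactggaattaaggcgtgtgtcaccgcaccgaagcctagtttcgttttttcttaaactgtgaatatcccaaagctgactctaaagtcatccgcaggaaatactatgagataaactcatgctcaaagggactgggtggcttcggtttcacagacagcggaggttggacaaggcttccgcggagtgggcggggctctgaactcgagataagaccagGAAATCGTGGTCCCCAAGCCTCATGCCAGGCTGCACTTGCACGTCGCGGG
A match or its absence in these windows is a description of the letters only.

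In Tissue-TRAP, the preparation with no dissociation step, the activating Fc receptor pair was the most abundant of the 9 genes. Per kilobase of exon, the mean level was 188 ± 27.7 CPM (SD, n = 4) for *Fcer1g* and 164 ± 14.5 for *Fcgr3*, and the libraries of these 2 genes overlapped. *Fcgr1* followed at 31.8 ± 1.70 CPM per kilobase, then *Cd83* at 13.5 ± 1.09, *Fcgr2b* at 8.93 ± 0.428 and *Cd86* at 7.85 ± 0.408. *Icam1* stood at 4.16 ± 0.226 CPM per kilobase, *Cd274* at 1.14 ± 0.240 and *Cd40* at 0.151 ± 0.0718. The inhibitory receptor *Fcgr2b* was thus below both activating receptors on this scale, which divides by the merged length of all annotated exons. That length was 5790 bases for *Fcgr2b* and 2589 for *Fcgr1*. In CPM, *Fcgr2b* (51.7) was also below *Fcgr1* (82.4) and *Fcgr3* (286), but it was above *Cd83* (34.6). *Cd40* rested on only 6 to 14 counts per library. In Cell-TRAP the order changed at the top, with *Fcgr3* at 614 ± 40.3 CPM per kilobase above *Fcer1g* at 447 ± 40.9, followed by *Fcgr1* at 181 ± 8.57. *Cd83* (71.9 ± 13.4) and *Cd86* (64.2 ± 4.11) overlapped there, *Fcgr2b* reached 49.7 ± 2.43, *Icam1* 41.3 ± 4.89, *Cd274* 5.70 ± 0.527 and *Cd40* 0.477 ± 0.198. All 9 genes passed the filter on low counts in every test. *Cd40* had 2 to 9 counts in Tissue-Input of the sort comparison and 0 to 5 in that of the cell preparation comparison, so in several tests it passed only through the dissociated groups, and its differences there are the least certain of the set.

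**Figure D1:**
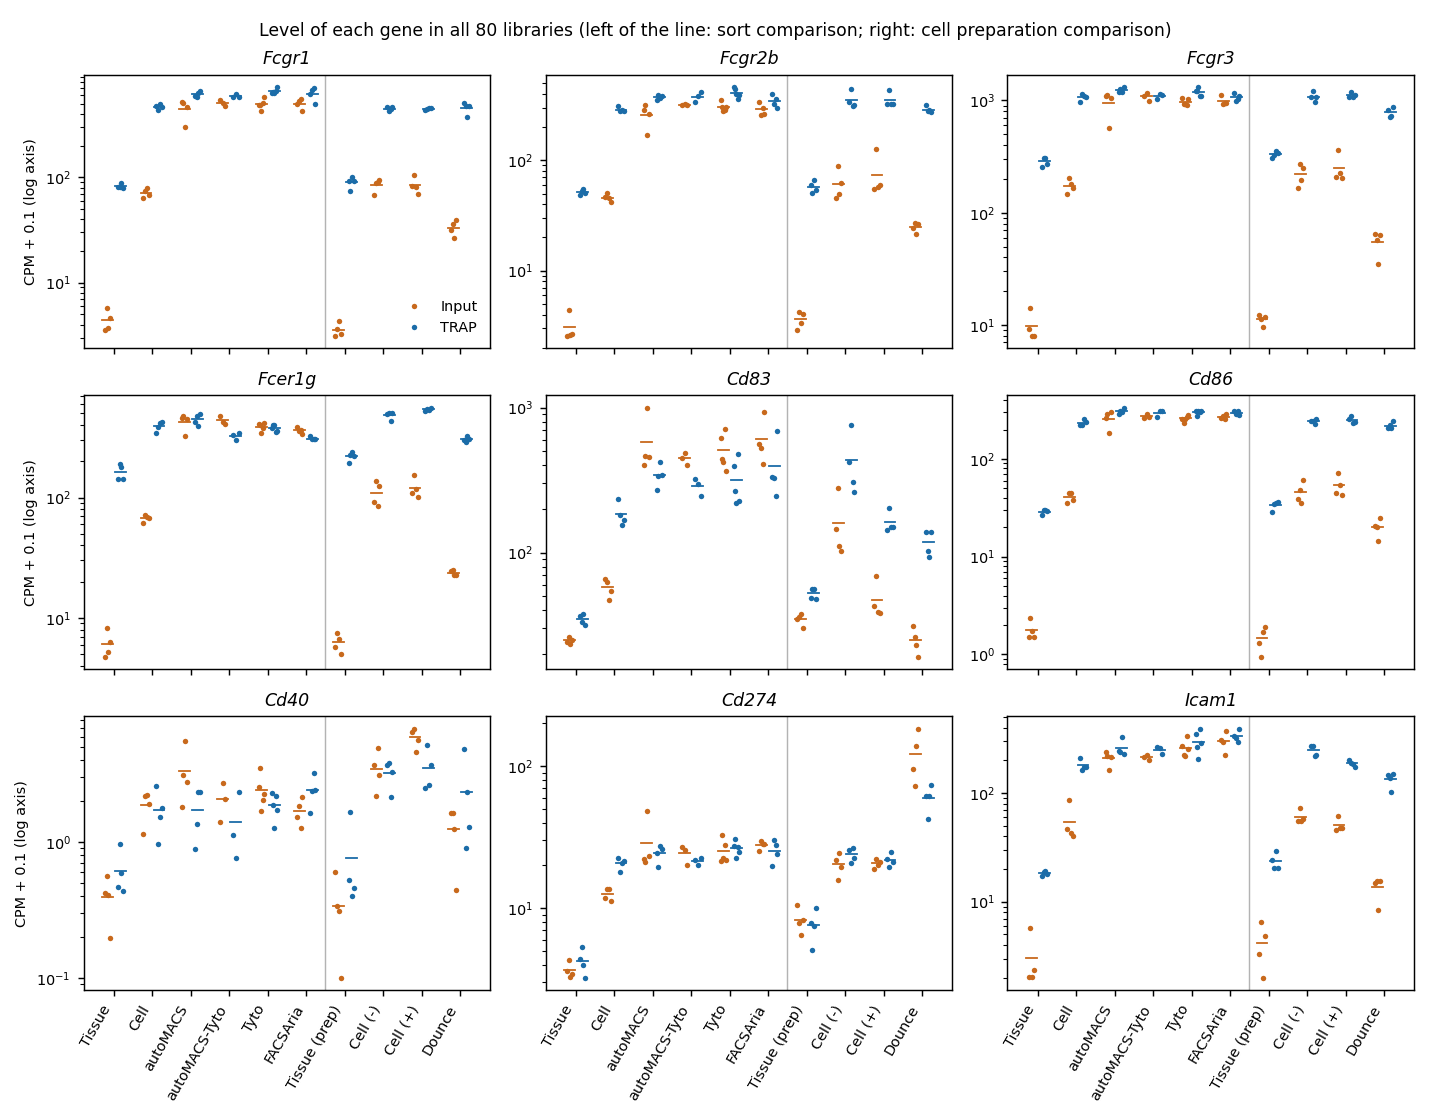
Level of each of the 9 genes in all 80 libraries, as CPM + 0.1 on a log axis, with Input in orange, TRAP in blue and horizontal lines at group means; levels were normalized within each fraction of each table. TRAP and Input lie apart in Tissue and in unsorted suspensions for the Fc receptor genes and meet after sorting, whereas *Cd274* in both fractions is highest in the Dounce group.

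The first question was how the level in the ribosome-bound RNA changed when brain was made into a cell suspension. All 9 genes were higher in Cell-TRAP than in Tissue-TRAP in the edgeR quasi-likelihood test (called at a Benjamini-Hochberg adjusted p under 0.1 and a fold above 2), against 25.1% of the 14953 genes tested, and the median difference of the 9 genes was 2.42 on the log2 scale against -0.01 over all genes. All 9 were higher with no overlap between the libraries of the groups, as were 38.3% of genes. These genes are expressed in microglia, whose reference genes rose by about as much, and in bulk libraries a larger share of microglial RNA and more RNA of a gene per microglial cell cannot be told apart. The 9 genes together took a median 0.0842% of counts in Tissue-TRAP and 0.290% in Cell-TRAP.

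Among the Fc receptor genes, *Fcgr3* stood at 258, 304, 310 and 272 CPM in the 4 Tissue-TRAP libraries and at 969, 1136, 1087 and 1067 CPM in Cell-TRAP. The difference was 1.90 ± 0.075 (log2 fold change ± SE, adjusted p = 2.48e-17). The high-affinity receptor *Fcgr1* lay between 79.8 and 89.0 CPM in Tissue-TRAP and between 439 and 493 CPM in Cell-TRAP, a difference of 2.51 ± 0.086. *Fcgr1* and the inhibitory *Fcgr2b*, which differed by 2.48 ± 0.092, thus rose more than the activating receptor *Fcgr3*. *Fcer1g* had the smallest rise of the 9 genes, with 144, 191, 178 and 144 CPM in Tissue-TRAP and 343, 385, 412 and 424 CPM in Cell-TRAP. Its difference was 1.25 ± 0.092 (adjusted p = 4.39e-12), and it was 0.92, under the fold of 2, with the size factors of DESeq2. The share of *Fcer1g* in the summed CPM of the 9 genes was 24.5% in Tissue-TRAP and 13.8% in Cell-TRAP.

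Among the costimulatory and adhesion genes, *Icam1* rose most. Its libraries stood at 17, 18.6, 19.2 and 17.7 CPM in Tissue-TRAP and at 211, 163, 173 and 172 CPM in Cell-TRAP, a difference of 3.31 ± 0.161 (adjusted p = 1.25e-15). *Cd86*, the CD28 ligand, was at 26.5, 29.7, 29.7 and 29.1 CPM against 224, 222, 254 and 241 CPM, a difference of 3.03 ± 0.072 (adjusted p = 7.91e-21). Both genes took a larger share of the set after dissociation, *Icam1* from 2.71% to 6.35% and *Cd86* from 4.29% to 8.30% of the summed CPM. *Cd83* lay at 36.4, 33, 37.6 and 31.5 CPM in Tissue-TRAP and at 234, 183, 154 and 169 CPM in Cell-TRAP, a difference of 2.42 ± 0.268. *Cd274* was at 4.30, 5.21, 3.88 and 3.13 CPM against 22.3, 17.9, 20.8 and 21.4 CPM, a difference of 2.33 ± 0.156. *Cd40* was at 0.369, 0.869, 0.491 and 0.335 CPM against 2.50, 0.876, 1.43 and 1.69 CPM, a difference of 1.65 ± 0.443 (adjusted p = 0.00153), with the nearest pair of libraries of the 2 groups almost touching.

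The same preparation in the cell preparation comparison, from other mice, gave 9 of 9 higher in Cell (-) Inhibitor TRAP than in Tissue-TRAP, against 22.3% of 14723 genes. The differences ran from 1.14 ± 0.084 for *Fcer1g* to 3.39 ± 0.145 for *Icam1*, and *Cd86* (2.85 ± 0.10) and *Cd83* (3.07 ± 0.262) followed *Icam1*. The Tissue mice are shared between the tables, so the result is not independent of the one above on that side.

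To set the members beside microglial RNA and not beside all RNA, the test was repeated with libraries scaled to the geometric mean count of the 17 microglial reference genes. On that scale the median of all genes moved to -2.46 and 83.4% of genes were called in either direction, nearly all of them lower, while the median of the 9 members was -0.02. *Icam1* (0.87 ± 0.163) and *Cd86* (0.58 ± 0.070) still lay above Tissue-TRAP, but within a fold of 2. *Fcgr1* (0.06), *Fcgr2b* (0.03), *Cd83* (-0.021) and *Cd274* (-0.13) lay near 0. *Fcgr3* lay lower (-0.55 ± 0.0841) and *Fcer1g* was called lower at -1.21 ± 0.0970, so that for both genes the sign against Tissue-TRAP was turned by the choice of scale. In the cell preparation comparison on the same scale, where 84.0% of genes were called, *Icam1* was called higher at 1.03 ± 0.131 and *Fcer1g* lower at -1.23 ± 0.0972, with *Cd83* at 0.72 ± 0.264. *Fcer1g* thus rose less, and *Icam1* more, than the reference genes in both tables.

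**Figure D2:**
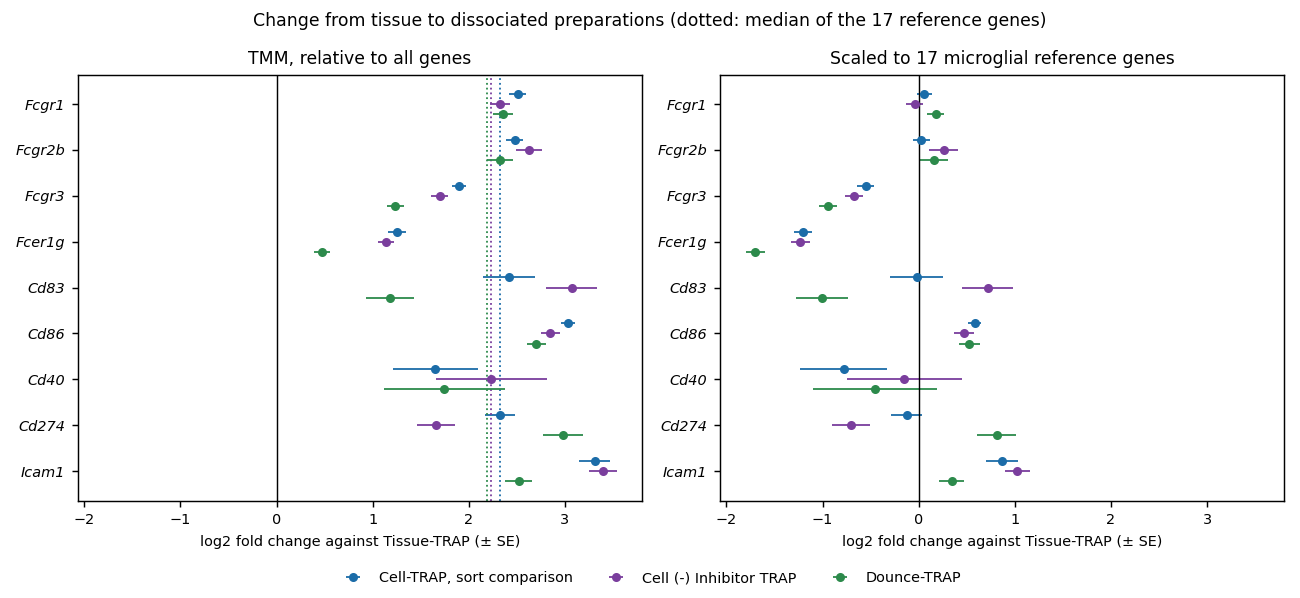
Log2 fold change against Tissue-TRAP (± SE) of each of the 9 genes after dissociation, scaled over all genes and scaled to the 17 microglial reference genes. The members lie between 1.25 and 3.31 in Cell-TRAP on the scale over all genes and around 0 on the microglial scale, with *Fcer1g* lowest and *Icam1* highest there on both scales.

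Sorting the suspension changed the TRAP level of these genes by less than a fold of 2 in the mean of the 4 sort methods. Single methods were not tested against Cell-TRAP. Mean *Cd83* was 185 CPM in Cell-TRAP, 398 CPM after the FACSAria and 287 to 342 CPM after the other methods. In the mean of the 4 sort methods against Cell-TRAP, the edgeR quasi-likelihood test called 0 of 9 members, against 24.4% of genes in either direction, and DESeq2 also called 0. Nearly all of these genes were lower (23.6%), and only 0.836% of genes were called higher, so 0 members called higher is near the share over all genes. The differences were small but many were measurable, since 6 of 9 had an unadjusted p under 0.05, and the same number had an adjusted p under 0.1, against 59.9% of genes. *Cd83* had the largest (0.85 ± 0.21, adjusted p = 0.00131), then *Icam1* (0.65 ± 0.12), *Fcgr1* (0.41), *Fcgr2b* (0.39) and *Cd86* (0.36), while *Fcgr3* (0.10), *Fcer1g* (-0.12) and *Cd40* (0.07) had adjusted p above 0.1. On the microglial scale 0 of 9 were called too, and the differences of *Fcgr1* (0.13), *Fcgr2b* (0.10) and *Cd86* (0.07) were smaller, while *Fcer1g* was lower at -0.40 ± 0.0738 (adjusted p = 5.73e-05) and *Fcgr3* at -0.18. Without the Cell-TRAP library of mouse 946, *Cd83* reached 1.00 and was called. The sorted suspensions came from other mice than the Cell samples, so sorting and animal cannot be told apart here. *Cd83* also varied among the sorted libraries. It stood at 270, 335, 420 and 342 CPM after autoMACS and at 333, 326, 246 and 688 CPM after the FACSAria. Tyto libraries lay between 221 and 481 CPM, so each sort method spanned a range that covered much of the others. Levels of *Cd86* by contrast kept to 271 to 333 CPM over all 16 sorted TRAP libraries.

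Between the 4 sort methods, 0 of 9 genes were called in TRAP, against 4.17% of genes, and 0 of 9 in Input, against 7.42%. In edgeR 4 members in TRAP and 0 in Input had an unadjusted p under 0.05, and the likelihood ratio test of DESeq2 called 0 in each fraction. The clearest difference was in *Fcer1g*, with the lowest adjusted p (4.8e-04) and a largest gap between method means of 0.53 on the log2 scale. *Fcer1g* lay at 321, 305, 304 and 304 CPM after the FACSAria and at 328, 301 and 342 CPM after autoMACS and Tyto in series. It was at 420, 479, 392 and 493 CPM after autoMACS alone, and between 351 and 404 CPM after the Tyto alone. The sorts used different mice apart from those shared by FACSAria and Tyto and by both autoMACS groups, so method and animal can only in part be told apart.

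Input libraries follow all RNA in the homogenate. In Cell-Input all 9 genes were higher than in Tissue-Input, against 28.5% of 15750 genes, with a median of 3.95 against 0.17 over all genes. *Cd86* rose by 4.6 ± 0.164 and the Fc receptor genes by 3.48 to 4.16, whereas *Cd83* rose by only 1.22 ± 0.265 and *Cd274* by 1.80 ± 0.221. Sorting raised 8 of the 9 over Cell-Input, against 17.1% of genes, by a median of 2.58 against -0.09. *Cd83* had the largest rise at 3.21 ± 0.255 and *Cd274* the smallest called at 1.08 ± 0.17, which became 0.99 without the autoMACS library of mouse 72, and *Cd40* was at 0.31 (adjusted p = 0.362). On the microglial scale these Input rises were gone, with member medians of -0.33 for Cell-Input and -0.07 for Sort-Input against medians of -4.18 and -2.73 over all genes, and 8 members in the first and 5 in the second had a negative sign.

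TRAP against Input from the same homogenate compares RNA on tagged ribosomes with all RNA. The share of a transcript in tagged cells and its share on ribosomes cannot be told apart in this difference. In tissue, 6 of 9 genes were higher in TRAP, against 9.23% of 15825 genes, and the median was 4.30 against 0.03. The activating receptor *Fcgr3* was at 8.29, 12.7, 7.14 and 7.14 CPM in Tissue-Input and at 270, 313, 325 and 282 CPM in Tissue-TRAP on a scale joint to both fractions, a difference of 5.08 ± 0.15. *Fcer1g* (4.96), *Fcgr1* (4.46), *Fcgr2b* (4.32) and *Cd86* (4.30) were close behind, and *Icam1* was lower at 2.83 ± 0.25. The remaining 3 genes were not called. *Cd83* was at 22.1, 23.6, 21.1 and 22.5 CPM in Input and at 38.1, 34, 39.4 and 32.8 CPM in TRAP, a difference of 0.69 ± 0.29 (adjusted p = 0.0664). *Cd274* differed by 0.41 (adjusted p = 0.176), and its Input libraries (3.22, 3.82, 2.88 and 3.00 CPM) overlapped with its TRAP libraries (4.50, 5.37, 4.07 and 3.25 CPM). The TRAP to Input difference of *Cd83* and *Cd274* in whole tissue was thus under a fold of 2, where that of each Fc receptor gene was over 4 on the log2 scale. Set to the microglial reference genes, the median of all genes was -4.58 and that of the 9 members -0.27, and *Fcgr1*, *Fcgr2b*, *Cd86* and *Icam1* then had negative signs with *Cd83*, *Cd40* and *Cd274*. Of these, *Icam1*, *Cd83*, *Cd40* and *Cd274* were called lower, as were 97.2% of genes.

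In the cell suspension 8 of 9 were higher in TRAP, against 16.8% of genes, with a median of 2.82 against -0.07. The Fc receptor genes and *Cd86* lay between 2.81 and 3.00, *Icam1* at 2.03 and *Cd83* at 1.97 ± 0.28, now called. *Cd83* stood at 56.4, 53, 39.6 and 46.1 CPM in Cell-Input and at 241, 189, 159 and 175 CPM in Cell-TRAP on the joint scale. *Cd274* was called at 1.02 ± 0.19, but fell to 0.61 with DESeq2 size factors and to 0.95 or 0.94 without mouse 946 or 949, and *Cd40* was at 0.16 (adjusted p = 0.713). On the microglial scale the median of the 9 in the suspension was 0.02, and 2 were called, both lower, *Cd40* (-2.59) and *Cd274* (-1.78), against 92.6% of genes called, with *Cd83* (-0.84) and *Icam1* (-0.75) also negative. After sorting, 0 of 9 were called, against 18.9% of genes (18.8% lower and 0.0758% higher), with 6 of 9 at an unadjusted p under 0.05 and 0 called by DESeq2. *Cd83* was then lower in TRAP than in Input, by -0.60 ± 0.14 (adjusted p = 3.19e-04), and *Fcgr1* (0.43) and *Fcgr2b* (0.44) were higher, all within a fold of 2.

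The change in the TRAP to Input difference between tissue and suspension was itself called for 6 of the 9 genes, against 35.3% of genes. It fell for 5 of them, by 2.18 ± 0.19 for *Fcgr3*, 2.14 ± 0.16 for *Fcer1g*, 1.48 ± 0.15 for *Cd86*, 1.46 ± 0.17 for *Fcgr1* and 1.39 ± 0.19 for *Fcgr2b* on the log2 scale, against a median of -0.29 over all genes. All 17 microglial reference genes fell too, by a median of -1.80. *Cd83* alone of the 9 was called in the other direction on this scale, at 1.28 ± 0.40 (adjusted p = 0.00607), although with DESeq2 size factors its value was 0.95 and it was no longer called. Under microglial scaling the signs for *Fcgr1*, *Fcgr2b* and *Cd86* turned, *Fcgr3* (-0.41) and *Fcer1g* (-0.38) were no longer called, and 2 members were called higher, *Cd83* at 3.08 and *Cd274* at 2.39 (adjusted p = 2.91e-07), against 61.6% of genes called.

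**Figure D3:**
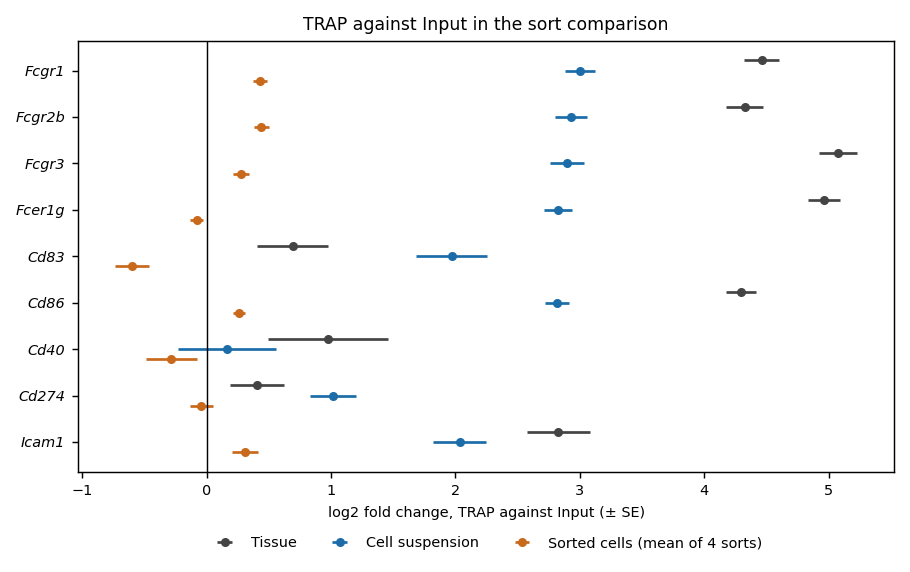
Log2 fold change of TRAP against Input (± SE) for each of the 9 genes in tissue, in the cell suspension and in sorted cells. The Fc receptor genes and *Cd86* fall from above 4 in tissue to about 3 in the suspension and to under 0.5 after sorting, whereas *Cd83* is highest in the suspension, and on the microglial scale, which is not plotted, the median of the 9 members in tissue is -0.27.

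The next question was whether transcription and translation inhibitors during dissociation changed these genes. *Cd83* alone was called lower in Cell (+) than in Cell (-) Inhibitor TRAP, 1 of 9 against 0.632% of genes. It stood at 306, 263, 419 and 763 CPM without inhibitors in mice 156, 157, 1361 and 1362, and at 151, 150, 144 and 202 CPM with inhibitors in the same mice. Each mouse had less *Cd83* in its inhibitor library, and the groups did not overlap. The difference was -1.44 ± 0.245 (adjusted p = 0.00235), and it was -1.02 without the Cell (-) library of mouse 1362, which was the highest of its group. In Input, where 0.311% of genes were called lower, *Cd83* was again the only one of 9, at 112, 103, 145 and 281 CPM without and 38.7, 38.4, 42.9 and 68.4 CPM with inhibitors, a difference of -1.76 ± 0.258 (adjusted p = 7.24e-04). It was -1.35 without the Cell (-) library of mouse 1362. Scaling to the microglial reference genes left the drop at -1.53 in TRAP and -1.94 in Input, called in both, against 0.632% and 0.349% of genes.

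With inhibitors *Cd83* was still above Tissue-TRAP, whose libraries were at 48.8, 55.9, 55.9 and 48 CPM. The difference was 1.63 ± 0.25 (adjusted p = 1.05e-05), and -0.81 ± 0.265 on the microglial scale. All 9 genes were higher in Cell (+) Inhibitor TRAP than in Tissue-TRAP, against 21.6% of genes, with a median of 2.32 that became -0.12 on the microglial scale. The other 8 genes were not called between Cell (+) and Cell (-) in TRAP. *Icam1* came nearest, with 270, 272, 219 and 225 CPM without and 203, 188, 183 and 174 CPM with inhibitors, groups that did not overlap, and a difference of -0.40 ± 0.13 (adjusted p = 0.206). With the mouse as a block the difference was -0.38 ± 0.0591 (adjusted p = 0.00129), lower in each of the 4 mice and within a fold of 2. *Fcgr1* (-0.01), *Fcgr2b* (-0.00), *Fcgr3* (0.04), *Cd86* (0.05), *Cd40* (0.12) and *Cd274* (-0.13) lay near 0, with the widest SE for *Cd40*. *Fcer1g* was higher with inhibitors by 0.15, with no overlap between the groups (adjusted p = 0.067 with the mouse as a block). Of all genes, 12.6% had no overlap between these groups. A p that misses the threshold does not show that levels were the same. No member was called for a difference in the effect of the inhibitors between fractions, in edgeR (0 of 9, against 0.145% of genes, and 0 at an unadjusted p under 0.05) or DESeq2 (0). *Cd83* was at 0.32 ± 0.37, or 0.35 ± 0.114 (adjusted p = 0.26) with the mouse within its preparation as a block. As a check of the treatment, 12 of 12 early response genes such as *Fos* and *Egr1* were lower with inhibitors in TRAP, by a median of -5.22.

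**Figure D4:**
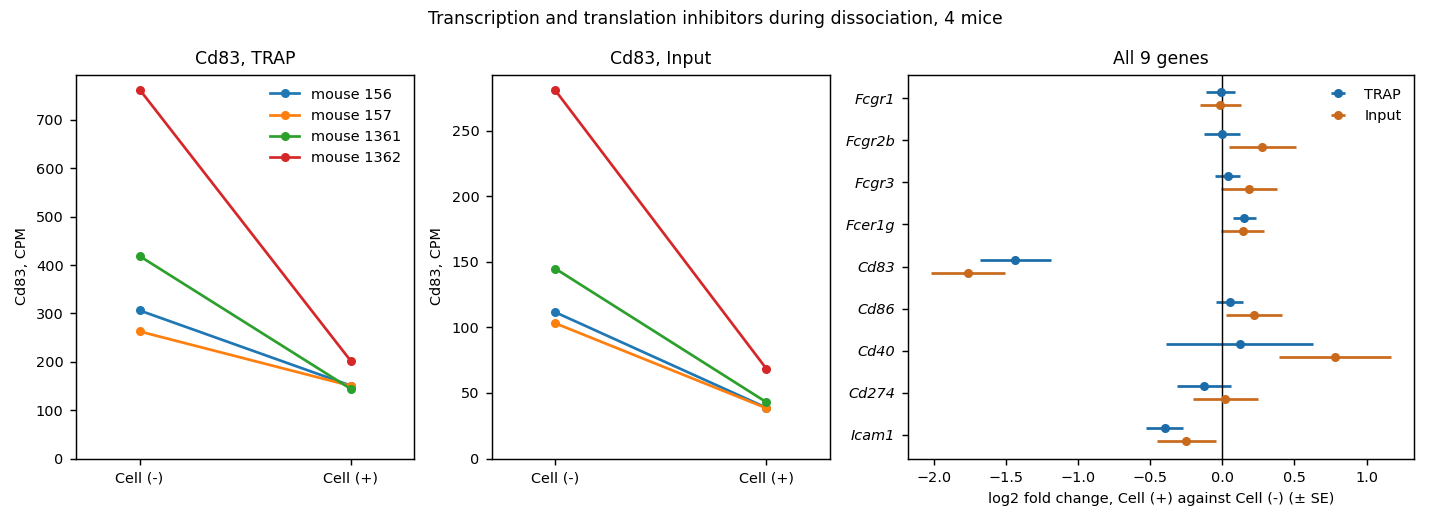
*Cd83* in each of the 4 mice without and with inhibitors, in TRAP and in Input (CPM), and the log2 fold change (± SE) of all 9 genes. *Cd83* falls in each mouse in both fractions, most in mouse 1362 (763 to 202 CPM in TRAP), and the other genes lie near 0 apart from *Cd40* in Input with its wide error and *Icam1*.

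Mechanical dissociation at 4 °C gave a different order of the 9 genes. In Dounce-TRAP, 8 of 9 were higher than in Tissue-TRAP, against 23.2% of genes, with a median of 2.33, and *Fcer1g* was not called at 0.47 ± 0.084 (adjusted p = 6.52e-05). *Cd274* rose most, by 2.98 ± 0.206, ahead of *Cd86* (2.70), *Icam1* (2.52), *Fcgr1* (2.35) and *Fcgr2b* (2.33). *Cd40* was called at 1.75 ± 0.63, but its libraries (4.80, 0.799, 2.24 and 1.19 CPM, on 4 to 18 counts) overlapped those of Tissue-TRAP, and without mouse 179 it was at 0.97 and not called. *Fcgr3* rose by 1.23 ± 0.089 and *Cd83* by 1.18 ± 0.252, both less than in the enzymatic suspensions. On the microglial scale *Fcgr3* (-0.94), *Fcer1g* (-1.70), *Cd83* (-1.01) and *Cd40* (-0.45) turned negative, *Fcer1g* and *Cd83* as called (against 80.4% of genes), and *Cd274* stayed above Tissue-TRAP at 0.81 ± 0.20.

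*Cd83* was lower and *Cd274* higher in Dounce-TRAP than in Cell (-) Inhibitor TRAP, the 2 genes called of 9, against 28.7% of genes in either direction. *Cd83* was at 139, 102, 93.2 and 138 CPM in Dounce-TRAP, under every Cell (-) library, a difference of -1.89 ± 0.25 (adjusted p = 5.78e-06). *Cd274* was at 61.9, 42.3, 61.5 and 72.9 CPM in Dounce-TRAP and at 25.5, 20.6, 26.5 and 22.5 CPM in Cell (-) Inhibitor TRAP, a difference of 1.32 ± 0.19 (adjusted p = 1.36e-05). Groups overlapped for neither gene, as for 41.6% of genes, and both calls held on the microglial scale (-1.73 and 1.51, against 29.2% of genes called). *Icam1* (-0.87 ± 0.13), *Fcer1g* (-0.67 ± 0.084) and *Fcgr3* (-0.46) were lower within a fold of 2, with adjusted p under 0.1. Against Cell (+) Inhibitor TRAP, *Cd274* alone was called, higher by 1.45 ± 0.19 (adjusted p = 4.8e-06), against 21.5% of genes called higher, while *Cd83* differed by -0.46 ± 0.25 (adjusted p = 0.13) and was not called, although every Dounce-TRAP library lay below every Cell (+) library, a lack of overlap in either direction that 43.6% of genes had. The Dounce mice differ from the mice of the suspensions, so preparation and animal cannot be told apart. The authors also report lower RNA yield and RNA integrity for the Dounce preparation than for the enzymatic suspensions. The part of RNA quality in the Dounce differences was not tested.

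*Cd274* was higher still in Dounce-Input. It stood at 95.7, 72.7, 138 and 183 CPM in Dounce-Input of mice 179 to 182, at 10.3, 7.71, 6.32 and 8.08 CPM in Tissue-Input and at 21.6, 15.5, 24.3 and 19.5 CPM in Cell (-) Inhibitor Input. *Cd274* differed by 3.90 ± 0.25 from Tissue-Input (1.17 ± 0.271 on the microglial scale, called, against 84.6% of genes) and by 2.59 ± 0.225 (adjusted p = 3.03e-09) from Cell (-) Inhibitor Input. On the microglial scale *Cd274* differed from Cell (-) Inhibitor Input by 4.39 ± 0.29. Against Tissue-Input 8 of 9 genes were higher in Dounce-Input, against 28.7% of 15753 genes, and *Cd83* was not (-0.48, adjusted p = 0.12). Against Cell (-) Inhibitor Input all 9 were called, against 56.8% of genes, with *Cd274* higher and the other 8 lower, *Cd83* most (-2.68 ± 0.27) and *Cd86* least (-1.19), although on the microglial scale *Fcgr1*, *Fcgr2b*, *Cd86* and *Cd40* turned to a positive sign and *Cd274* alone was called, against 71.9% of genes. For Cell (-) Inhibitor Input over Tissue-Input all 9 were higher, against 25.6% of genes, and there *Cd274* had the smallest rise at 1.31. On the microglial scale 7 of these signs turned negative and 2 members were called, both lower, *Cd83* (-2.35) and *Cd274* (-3.22), against 94.9% of genes called.

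Within the Dounce preparation, a comparison added after the *Cd274* values were seen, 8 of 9 genes were higher in TRAP than in Input, against 20.8% of genes, by 4.20 for *Fcgr3*, 4.16 for *Fcgr1* and 3.68 for *Icam1*, all of which turned negative on the microglial scale, where the median of all genes was -4.52. *Cd274* was the exception at -0.67 ± 0.21 (adjusted p = 0.00563), within a fold of 2, and on the joint scale its Input libraries (76.5, 58.9, 113 and 148 CPM) overlapped its TRAP libraries (64.7, 44.6, 64.1 and 75.6 CPM). Summed markers of neutrophils, monocytes and dendritic cells were also higher in Dounce-Input than in Cell (-) Inhibitor Input. The 7 neutrophil and monocyte markers measured summed to 411, 196, 1218 and 242 CPM in Dounce-Input of mice 179 to 182 and to 22.4 to 77.6 CPM in Cell (-) Inhibitor Input, and 6 of the 7 were called higher, against 28.8% of genes. The 6 dendritic cell markers summed to 108 to 155 CPM against 15.6 to 24.4 CPM. In Dounce-TRAP the neutrophil and monocyte sum was 19.0 to 34.9 CPM, with 1 to 4 of the 7 markers at 0, against 11 to 16.1 CPM in Cell (-) Inhibitor TRAP. Mouse 182 had the highest *Cd274* and mouse 181 the highest marker sum, and the part of these cells in the *Cd274* level was not tested.

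**Figure D5:**
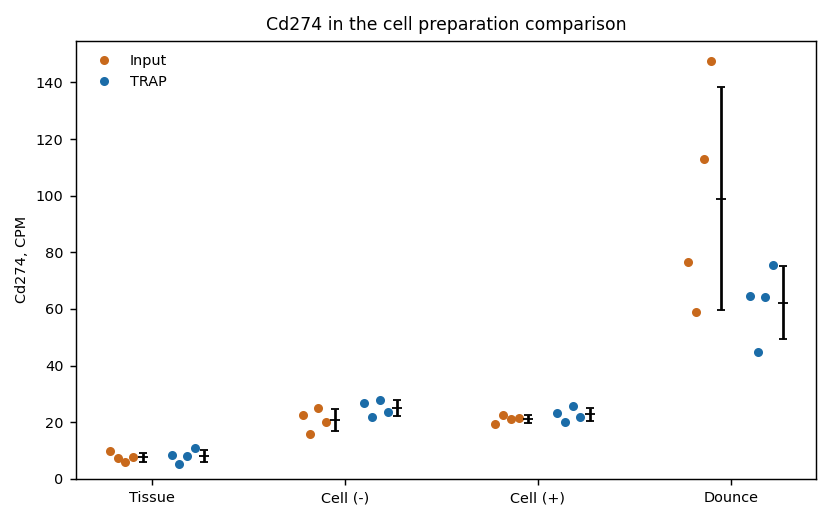
*Cd274* in TRAP and Input libraries of the cell preparation comparison, as CPM on a scale joint to both fractions, with 1 point per library and the mean ± SD (n = 4) beside each group. The Dounce libraries run from 44.6 to 75.6 CPM in TRAP and from 58.9 to 148 CPM in Input, and the highest of all other libraries is at 27.8 CPM.

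Other genes of the same pathways were taken from lists drawn up by function. In Cell-TRAP against Tissue-TRAP, where 25.1% of all genes were called higher and 29.3% lower, 5 of 6 further Fc receptor genes measured were higher, by a median of 2.22 over the 6, and 19 of 20 genes of ITAM signalling, by a median of 2.23. Of the 16 other costimulatory ligands and receptors measured, 16 were higher (median 2.76), and of the 10 integrins, ICAMs and their partners 8 were higher and 2 lower. For the CD40 adaptors and NF-kB genes 9 of 12 were higher, at a median of 1.81. On the microglial scale the medians of these 5 lists were -0.22, -0.22, 0.33, -0.09 and -0.63 in the same order, with 2 or fewer genes of each list called higher (82.4% of all genes were called lower), so the direction turned for all but the costimulatory list.

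Among the further Fc receptors, *Fcrl1*, an Fc receptor-like protein, was higher by 3.00, the cytosolic antibody receptor *Trim21* by 2.88 and the activating receptor *Fcgr4* by 2.32, which became 0.56, 0.43 and -0.13 on the microglial scale. The ITAM list was led by *Cbl*, a ubiquitin ligase that limits receptor signalling, at 4.50 ± 0.24 and still 2.06 on the microglial scale. It lay between 4.42 and 7.82 CPM in Tissue-TRAP and between 113 and 146 CPM in Cell-TRAP. The kinase adaptor *Pik3ap1* (3.16) and the phosphatase *Inpp5d* (3.04), which acts downstream of the inhibitory *Fcgr2b*, followed. The kinase *Syk* itself differed by 2.60, and *Tyrobp*, the sister chain of *Fcer1g*, by 0.81, which was not called and was the smallest value of that list.

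Of the costimulatory genes, the TNF family ligand *Tnfsf18* was at 0 in all 4 Tissue-TRAP libraries and at 1.67 to 3.28 CPM in Cell-TRAP. It passed the filter on low counts only through dissociated groups. Its call as higher, counted above with the costimulatory list, is therefore partly set by that filter. *Tnfrsf14*, the receptor of the BTLA pathway, was higher by 3.55 and was called on the microglial scale too (1.11), and *Cd200r1*, the receptor of the inhibitory ligand CD200, was higher by 3.32. *Cd80*, the partner of *Cd86* in binding CD28, differed by 2.82. Among adhesion genes the neuronal *Icam5* (-4.82) and *Icam4* (-3.04) were lower, and *Itgam*, the Mac-1 alpha chain and one of the 17 reference genes, was higher by 3.08. In the CD40 list the NF-kB subunit *Rel* was higher by 4.89 and by 2.47 on the microglial scale, ahead of the inhibitor *Nfkbia* (3.37 and 0.93) and *Nfkb1* (2.57 and 0.12).

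With inhibitors, these lists held 2 called genes in TRAP, both lower, where 0.632% of all genes were. *Nfkbia* lay at 505 to 863 CPM without and at 123 to 154 CPM with inhibitors, a difference of -2.25 ± 0.18 (adjusted p = 9.77e-08). Its level with inhibitors was still above the 46.9 to 83.4 CPM of Tissue-TRAP, the same order of groups in CPM as for *Cd83*. That order depends on the scale, since on the microglial scale *Cd83* with inhibitors lay below Tissue-TRAP (-0.81). For *Nfkbia* the difference from Tissue-TRAP on that scale is not given here. *Tnfsf18* was lower by -3.00 ± 0.82 (adjusted p = 0.0918), and was not called on the microglial scale (adjusted p = 0.122). In Dounce-TRAP against Cell (-) Inhibitor TRAP, *Nfkbia* was lower by -2.41 ± 0.18, as were all 12 early response genes, by a median of -5.96. All 10 endothelial markers were lower there too (8.02% of genes were), and in Input they summed to 50.0 to 57.9 CPM in Dounce against 1663 to 2153 CPM in Cell (-). Endothelial cells can express *Icam1*, which was lower in Dounce-Input by -2.15, and their part in that difference was not tested.

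Over the 10 group means of TRAP, centred within each table, the 36 pairs of members had Pearson's r from 0.656 (*Fcer1g* and *Cd274*) to 0.998 (*Fcgr1* and *Cd86*), with a median of 0.908. These groups share the Tissue to suspension step, so high values are common, and the nearest of 11528 genes to *Fcgr1* was *Lims1* (r = 0.9996), to *Fcgr3* was *Irf5* (0.9985) and to *Icam1* was *Rnf180* (0.9983). For *Cd86* it was *Chst14*, for *Fcgr2b* *Lilrb3*, for *Fcer1g* *Efhd2* (0.9881), for *Cd274* *Cep57* (0.9939) and for *Cd40* *Gm16515* (0.9676). *Cd83* was nearest to *Tnfaip3* (0.9922), *Fam98a* (0.9908) and *Il1a* (0.9893).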

How the data were processed

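Total RNA and TRAP RNA of 80 samples were sequenced as directional poly(A) libraries. The authors aligned reads to mm10 in Strand NGS v4.0, removed duplicates and deposited an expected count for each gene. Whole numbers made up 33.4% and 21.2% of values in the sort and cell preparation tables. A further 80 columns of normalized values were not used, and 23 gene symbols that had been turned into dates were restored in each table. Groups and mouse numbers came from the labels. No pair of libraries was identical.

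Expected counts were rounded and tested in edgeR 4.0.16 (R 4.3.3) by the quasi-likelihood test after TMM normalization, in 1 fit per table and fraction, and in a joint fit for TRAP against Input. The filter on low values asked for more than 5 counts throughout 1 or more groups. Calls needed a Benjamini-Hochberg adjusted p under 0.1 together with a fold above 2, and SE is the log2 fold change over the square root of F. Alternatives used DESeq2 1.42.0 (size factors, Wald and likelihood ratio tests), scaling to the geometric mean of 17 microglial reference genes, other filters, fewer groups, the mouse as a block, and each library left out. In joint fits the block was the mouse within its preparation, and both libraries of a mouse in a preparation were left out together. For levels the count precision is that of the totals given with the samples. The main fits had group as the only factor. Their p-values therefore treat libraries of the same mouse as independent and do not measure the spread between mice alone. The tests were checked on simulated counts.

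Named genes were the 9 members, the 3 genes with the largest called change in each pathway list (Cell-TRAP against Tissue-TRAP, and with against without inhibitors), and the 3 genes most like each member by Pearson's r of mean log2(CPM + 1) over 10 TRAP groups, among genes at 10 CPM or more in 1 group. *Syk*, *Tyrobp* and *Cd80* were added after their values were seen. The members and lists were chosen with earlier results of these data known. Same-numbered libraries were taken as the same mouse. Their deviations from the group means correlated within mice at a mean r of 0.129 (Tissue and Cell, TRAP) and 0.318 (Cell (-) and Cell (+), TRAP). For Input and TRAP of the same preparation it was 0.211 (Tissue) and 0.382 (Cell). Between preparations in Input it was near 0, at -0.0236 (Tissue and Cell) and 0.0455 (Cell (-) and Cell (+)), so the pairing by mouse was not visible there. Promoters and coordinates were read from RefSeq (GRCm38.p6) and a GRCm38 annotation.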

Additional observations from a re-analysis of the deposited data

Results flagged for a closer look

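In 23 of 162 groups of 4 or 5 libraries tested (1 gene in 1 group each), a single library lay far from the others by Dixon's criterion, where chance alone gives about 1 in 20. Many of them fell on a few mice. Mouse 1362 was high in Cell (+) Inhibitor, with *Cd83* at 68.4 CPM in Input (others 38.4 to 42.9) and 202 CPM in TRAP (144 to 151), *Fcgr2b* at 126 CPM in Input (55.2 to 59.1) and 438 CPM in TRAP (323 to 325), *Fcgr3* at 359 CPM in Input (204 to 225) and *Icam1* at 60.8 CPM in Input (45.9 to 48). Its *Icam1* in Cell (-) Inhibitor Input was 72.6 CPM (others up to 57.4). The autoMACS libraries of mouse 72 had *Cd83* at 995 CPM in Input (400 to 466), *Cd274* at 47.8 CPM in Input (20.9 to 23.3), *Fcgr3* low at 572 CPM in Input (1041 to 1127) and *Icam1* at 327 CPM in TRAP (227 to 244).

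Mouse 947 was high in Tissue-Input of the sort comparison for *Fcgr2b* (4.33 CPM, others 2.46 to 2.55) and *Icam1* (5.63 CPM, others 1.92 to 2.26), in Cell-Input for *Icam1* (85.5 CPM, others 40 to 46.5) and in Tissue-TRAP of the cell preparation comparison for *Cd40* (1.57 CPM, others 0.304 to 0.430). Mouse 946 was low for *Cd86* in Tissue-TRAP of both tables, at 26.5 CPM (29.1 to 29.7) and 28.7 CPM (34.8 to 35.8). Mouse 69 was high after the FACSAria for *Fcer1g* in TRAP (321 CPM, others 304 to 305) and *Fcgr3* in Input (1109 CPM, others 923 to 951). *Fcgr1* was 89.0 CPM in Tissue-TRAP of mouse 948 (79.8 to 80.6) and 722 CPM in Tyto TRAP of mouse 991 (633 to 654), *Cd86* was 272 CPM in Tyto TRAP of mouse 822 (305 to 313), and *Icam1* was 8.25 CPM in Dounce-Input of mouse 181 (14.9 to 15.4).

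The difference between TRAP and Input changed from tissue to suspension, by the interaction term in edgeR, for *Fcgr1* (-1.46), *Fcgr2b* (-1.39), *Fcgr3* (-2.18), *Fcer1g* (-2.14), *Cd86* (-1.48) and *Cd83* (1.28).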

How the results depend on the processing

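Of the 22 counts of members called, all stayed within 1.5 times the value in the report with DESeq2 size factors, no filter on low counts, at least 10 counts in every sample, only the groups of the comparison (16 that allow it) or the DESeq2 tests, and the mouse as a replicate block changed no member call in the 10 comparisons fitted with it (89 of 89 member results kept their side). In fits joint to TRAP and Input the block was the mouse within its preparation, so different preparations of the same mouse were separate blocks. The comparisons between sorts were not fitted with a block, since their mice are shared only in part. The block did move counts over all genes, from 2994 to 1365 for TRAP against Input in sorted cells, from 94 to 150 for Cell (+) against Cell (-) TRAP and from 23 to 53 for the fraction by inhibitor interaction. With no fold threshold the members called were 6 for Sort-TRAP against Cell-TRAP (59.9% of all genes), 2 between the 4 sorts in TRAP (28.8%), 6 for TRAP against Input in sorted cells (64.5%), and 6 for Dounce-TRAP against each of Cell (-) and Cell (+) TRAP (59.6% and 60%). Leaving out 1 library gave 0 to 1 members for Sort-TRAP against Cell-TRAP, 7 to 8 for Sort-Input against Cell-Input, 7 to 8 for Dounce-TRAP against Tissue-TRAP, 2 to 3 for Dounce-TRAP against Cell (-) TRAP and 1 to 2 against Cell (+) TRAP. In joint fits, leaving out both libraries of a mouse in a preparation gave 7 to 8 for TRAP against Input in the suspension, 6 to 7 for the fraction by preparation interaction and 7 to 8 for Dounce TRAP against Input. No other count moved. The libraries behind these changes not named in the report were those of *Cd40* (mouse 946 in Cell for the interaction, -1.28, and mouse 179 in Dounce against Cell (-), -1.23, against Cell (+), -1.36, and against its Input, 0.69, which was 0.94 without mouse 181) and of *Icam1* (mouse 947 in Tissue for the interaction, -1.495).

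Over all genes, the filter of 10 counts in every sample lowered calls from 3651 to 440 for Sort-TRAP against Cell-TRAP, from 8126 to 4381 for Cell-TRAP against Tissue-TRAP, from 2994 to 224 for TRAP against Input in sorted cells, and from 624 to 173 (TRAP) and 1169 to 304 (Input) between the 4 sorts, where the DESeq2 likelihood ratio test gave 1148 and 1917 and a fit of the sorted groups alone 394 and 484. Scaling to the microglial reference genes turned the share of calls that were higher from 46.2% to 1.23% for Cell-TRAP against Tissue-TRAP (35% with DESeq2 size factors), from 83.1% to 0.0974% for TRAP against Input in tissue, from 35.2% to 0.0546% in the suspension (21.0% with size factors) and from 16.3% to 94.1% for the interaction (5.23% with size factors). The same share went from 61.9% to 0.49% for Cell-Input and from 57.3% to 0.348% for Cell (-) Inhibitor Input against Tissue-Input, from 33.1% to 0.224% for Sort-Input, from 42% to 1.11%, 40.9% to 0.477% and 46.1% to 1.79% for Cell (-), Cell (+) and Dounce TRAP against Tissue-TRAP, from 73.8% to 84.3% for Dounce-TRAP against Cell (+) TRAP, from 57.3% to 3.03% and 50.6% to 93.2% for Dounce-Input against Tissue-Input and Cell (-) Inhibitor Input, and from 43.8% to 0.0327% for Dounce TRAP against Input.

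Under the mouse block a few uncalled values near 0 changed sign, among them *Cd274* and *Fcer1g* (0.061 and 0.0071) for TRAP against Input in sorted cells. The member values below changed sign on the microglial scale, which sets the geometric mean of 17 genes equal between libraries. On it, Cell-TRAP against Tissue-TRAP gave *Fcgr3* -0.55, *Fcer1g* -1.21, *Cd83* -0.021, *Cd40* -0.78 and *Cd274* -0.13, with 1 of 9 called (83.4% of all genes). Cell-Input against Tissue-Input gave *Fcgr1* -0.26, *Fcgr2b* -0.33, *Fcgr3* -0.14, *Fcer1g* -0.83, *Cd83* -3.10, *Cd40* -1.74, *Cd274* -2.53 and *Icam1* -0.066, with 3 of 9 called (94.1%). Sort-Input against Cell-Input gave *Fcgr3* -0.13, *Fcer1g* -0.066, *Cd40* -2.25, *Cd274* -1.52 and *Icam1* -0.46, with 2 of 9 called (90.8%). TRAP against Input in tissue gave *Fcgr1* -0.11, *Fcgr2b* -0.23, *Cd83* -3.92, *Cd86* -0.27, *Cd40* -3.55, *Cd274* -4.17 and *Icam1* -1.69, with *Cd83*, *Cd40*, *Cd274* and *Icam1* called (97.3%). TRAP against Input in the suspension gave *Cd83* -0.84, *Cd40* -2.59, *Cd274* -1.78 and *Icam1* -0.75, with 2 of 9 called (92.6%). The fraction by preparation interaction gave *Fcgr1* 0.32, *Fcgr2b* 0.36 and *Cd86* 0.29, with 2 of 9 called (61.6%). Cell (-) Inhibitor TRAP against Tissue-TRAP gave *Fcgr1* -0.041, *Fcgr3* -0.67, *Fcer1g* -1.23, *Cd40* -0.15 and *Cd274* -0.70, with 2 of 9 called (84.0%). Cell (+) Inhibitor TRAP against Tissue-TRAP gave *Fcgr1* -0.12, *Fcgr3* -0.71, *Fcer1g* -1.15, *Cd83* -0.81, *Cd40* -0.091 and *Cd274* -0.90, with 1 of 9 called (85.4%). Dounce-TRAP against Tissue-TRAP gave *Fcgr3* -0.94, *Fcer1g* -1.70, *Cd83* -1.01 and *Cd40* -0.45, with 2 of 9 called (80.4%). Cell (-) Inhibitor Input against Tissue-Input gave *Fcgr2b* -0.47, *Fcgr3* -0.30, *Fcer1g* -0.44, *Cd83* -2.35, *Cd40* -0.74, *Cd274* -3.22 and *Icam1* -0.66, with 2 of 9 called (94.9%). Dounce-Input against Tissue-Input gave *Fcgr3* -0.49, *Fcer1g* -0.80, *Cd40* -0.47 and *Icam1* -1.05, with 4 of 9 called (84.6%). Dounce-Input against Cell (-) Inhibitor Input gave *Fcgr1* 0.45, *Fcgr2b* 0.53, *Cd86* 0.62 and *Cd40* 0.27, with 1 of 9 called (71.9%). Dounce TRAP against Input gave *Fcgr1* -0.15, *Fcgr2b* -0.41, *Fcgr3* -0.086, *Fcer1g* -0.26, *Cd83* -1.71, *Cd86* -0.46, *Cd40* -3.04 and *Icam1* -0.60, with 3 of 9 called (96.3%). Depth limits *Cd40* in Tissue and Dounce libraries, and a difference that missed the threshold was not shown to be absent.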

Other observations

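Within the sorted libraries the set of 9 genes took nearly the same share of counts whatever the sort, with group medians from 0.296% to 0.346% in TRAP and from 0.295% to 0.305% in Input. Dounce-TRAP came close to that, at a median of 0.250%, and Dounce-Input was at 0.0302%.

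The 6 border macrophage markers, *Mrc1* and *Lyve1* among them, summed to 138 to 169 CPM in Tissue-TRAP and 722 to 1877 CPM in Cell-TRAP. In Cell-TRAP this spread between libraries was wider than that of any Fc receptor gene, which was not so in Tissue-TRAP. In the mouse with the highest *Cd83* and *Fcgr2b* of Cell (-) Inhibitor TRAP, mouse 1362, the sum was 1356 CPM, against 574 to 934 CPM in the other 3 mice of that group. With inhibitors the sum in mouse 1362 was 823 CPM, within the 697 to 970 CPM of the others.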
